A study of Mus musculus with 6 samples.

Results

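The genes described here encode the nuclear subunits of respiratory chain complexes II to V, together with Cycs for cytochrome c. They were chosen by symbol, with the complex IV subunits that come in tissue isoform pairs left out. All 36 genes were found among the 47729 genes of the deposited tables, and all 36 passed the filter on low counts that left 17668 genes for testing. Complex II contributed 4 genes, complex III 9, complex IV 7, complex V 15 and cytochrome c 1.

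The tissue was brown adipose tissue (BAT) of wild-type male C57BL/6J mice, single-housed and fed from 6 to 10 weeks of age, which is 4 weeks. One group received a 45% high-fat diet (HFD, 3 mice) and the other a standard rodent diet (LFD, 3 mice). RNA was taken from the right interscapular depot, depleted of ribosomal RNA and read from a single end for 75 bases, giving 17156991 to 21603487 rounded counts per mouse. The mice of each diet carried the replicate numbers 1 to 3, and the animals were picked to span the fat mass of their group from least to greatest, with no statement of which number holds which rank.

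Complex II (succinate dehydrogenase) passes electrons from succinate to ubiquinone, and complex III carries them on to cytochrome c, the small soluble protein that delivers them to complex IV, where oxygen is reduced. Complexes III and IV pump protons out of the mitochondrial matrix. In most tissues the protons return through complex V (ATP synthase) and drive ATP production, whereas in brown adipocytes uncoupling protein 1 lets them return as heat. BAT is known for abundant respiratory complexes beside a low content of ATP synthase, which has been tied to low expression of Atp5g1, a gene for the subunit c that forms the rotating ring of the enzyme.

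The label of the tissue was checked against marker genes. Ucp1, which defines brown adipocytes, was measured at 2728, 4021 and 796 TPM in HFD replicates 1, 2 and 3 and at 443, 11.0 and 76.0 TPM in LFD replicates 1, 2 and 3. TPM (transcript abundance corrected for length, with the same total in every mouse) allows levels to be compared between genes. The 12 skeletal muscle markers together reached 7.38 to 190.1 TPM in the HFD-fed mice and 1869 to 12819 TPM in the LFD-fed mice, so that the LFD libraries carried muscle transcripts. All 12 had a negative fold change, with a median log2 fold change of -6.21. The summed level of 10 macrophage markers ran from 476 to 3902 TPM and was lowest in LFD replicate 1 and highest in LFD replicate 3. The part of these cell types in the results that follow was not tested. In bulk tissue, fewer cells of a type and less RNA per cell cannot be told apart.

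The transcripts of the 36 genes were abundant in every mouse. Their summed level was 18520, 20818 and 10557 TPM in HFD replicates 1 to 3 and 20419, 12573 and 7939.5 TPM in LFD replicates 1 to 3. HFD replicate 3 and LFD replicate 3 were lowest in their diets, and the diets overlapped. Single genes held between 526 and 69560 rounded counts per mouse, so counting error was small beside the differences between mice. Atp5b, the catalytic beta subunit of ATP synthase, had the highest TPM of the set in all 6 mice. Its mean over the mice was 14.9 times that of Atp5g1, the lowest mean. Atp5g1 was the lowest gene of the set in only 2 mice, HFD replicates 1 and 2.

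**Figure D1:**
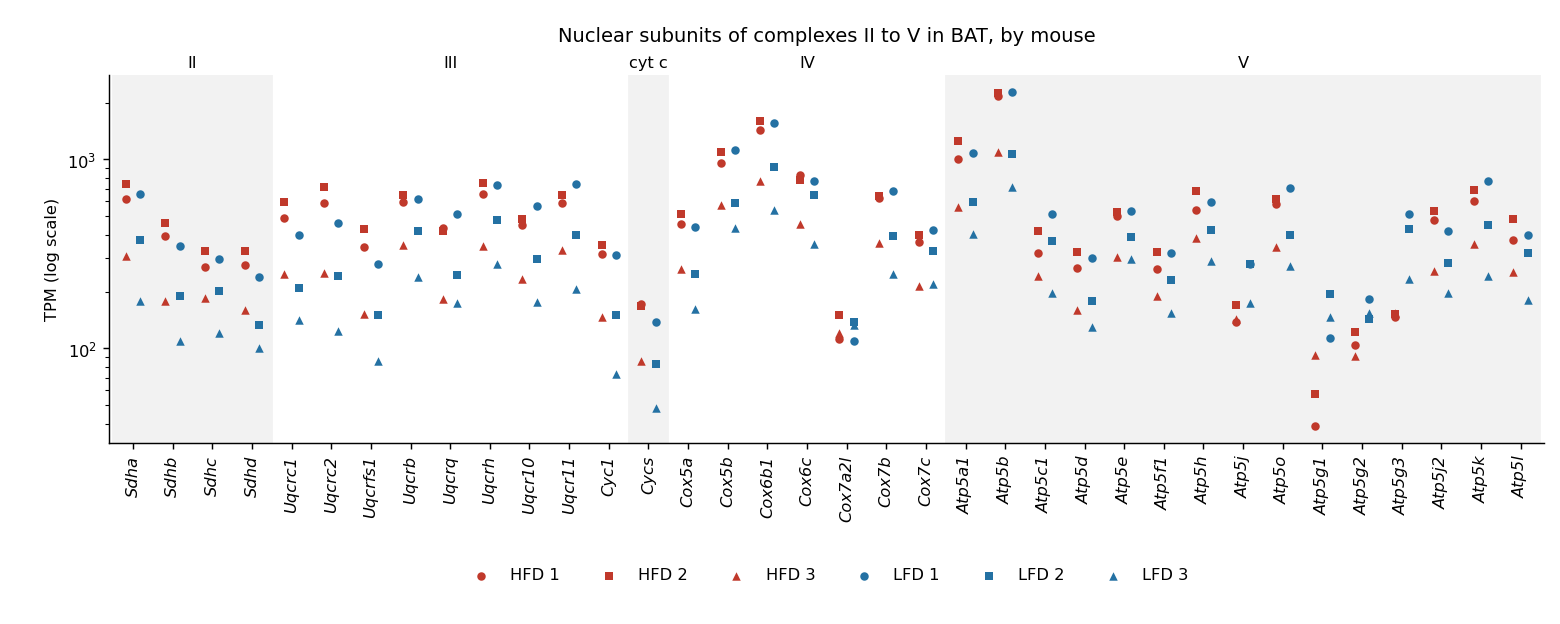
TPM on a log axis for each of the 36 genes, grouped by complex; red marks are HFD-fed and blue marks LFD-fed mice, and circle, square and triangle stand for replicates 1, 2 and 3. The triangles lie lowest in most columns of both diets, and the red marks lie below all blue ones in Atp5j, Atp5g1, Atp5g2 and Atp5g3.

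No member differed between the diets after correction for multiple tests. With edgeR's quasi-likelihood test and Benjamini-Hochberg adjustment over all genes tested, 0 of 36 members were called at an adjusted p under 0.01 with an absolute log2 fold change above 1.5, the same as the 0% of all tested genes. At an adjusted p under 0.05 the count was again 0, against 0% of all genes, and the adjusted p-values of the members ran from 0.242 to 0.977. At an unadjusted p under 0.05 there were 0 members higher in HFD, where 3.86% of all genes were, and 1 lower, where 6.62% were. The lower gene was Atp5g1. DESeq2 called 0 members, beside 2.03% of all genes, and at an unadjusted p under 0.05 had 0 members higher (4.99% of all genes) and 2 lower (7.51%).

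The fold changes of the members nevertheless shared a sign. The log2 fold change, HFD over LFD, was above 0 in 31 of 36 members, compared with 45.6% of all genes tested. Its median was 0.39 over the members and -0.05 over all genes. The 5 members below 0 were all subunits of complex V: the 3 c-ring genes, Atp5j and Atp5c1. On the TPM scale, with 1 added before the logarithm, 31 members were higher in HFD as well, with a median difference of 0.34, while the median of all genes moved to -0.18. The direction rested on the uppermost and lowermost mice, since only 17 members stayed above 0 without HFD replicate 1 and 18 without LFD replicate 3. The standard errors of the members lay between 0.26 and 0.82, and 28 of the 36 fold changes were smaller than their own standard error.

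The spread between mice of a diet was wide, and replicate 3 was the lowest mouse of its diet in nearly every member. In log2 CPM (counts scaled to the normalized library size), HFD replicate 1 was the highest HFD mouse in 35 of 36 members, against 36.3% of all genes, and HFD replicate 3 the lowest in 35, against 36.4%. Among the LFD mice, replicate 1 was highest in all 36 members (37.8% of all genes) and replicate 3 lowest in all 36 (35.9%). In TPM the top HFD mouse changed, to HFD replicate 2 in 31 members with HFD replicate 1 highest in 3, while HFD replicate 3 was lowest in 32 and, in LFD, replicate 1 was highest in 34 and replicate 3 lowest in 33. The pooled standard deviation within a diet had a median of 1.00 over the members and 0.49 over all genes on the log2 CPM scale. For 34 of the 36 members the fold change was smaller than this standard deviation. The exceptions were Atp5g1 and Atp5g3.

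Because mice with the same number deviated together from their diet means, the comparison was also made with the replicate number as a block. This pairing was chosen from the same data, as the study names no matching of mice by number. The members largely shared the order of their replicates, so such a block takes up much of their spread. Its p-values are given as description only. Members at an unadjusted p under 0.05 then numbered 12, of which 10 were higher in HFD (8.75% of all genes) and 2 lower (8.76% of all genes). The median fold change of the members was 0.57 and that of all genes 0.00, and 32 members were above 0 (49.9% of all genes). No member reached an adjusted p under 0.05, which 1.04% of all genes did, and the lowest adjusted p was 0.161. In log2 CPM, the HFD mouse was higher than the LFD mouse of the same number in 22 members for number 1, 32 for number 2 and 33 for number 3. In TPM the first of these counts was 11, so that for number 1 the majority turned with the scale, and the other counts were 32 and 30.

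**Figure D2:**
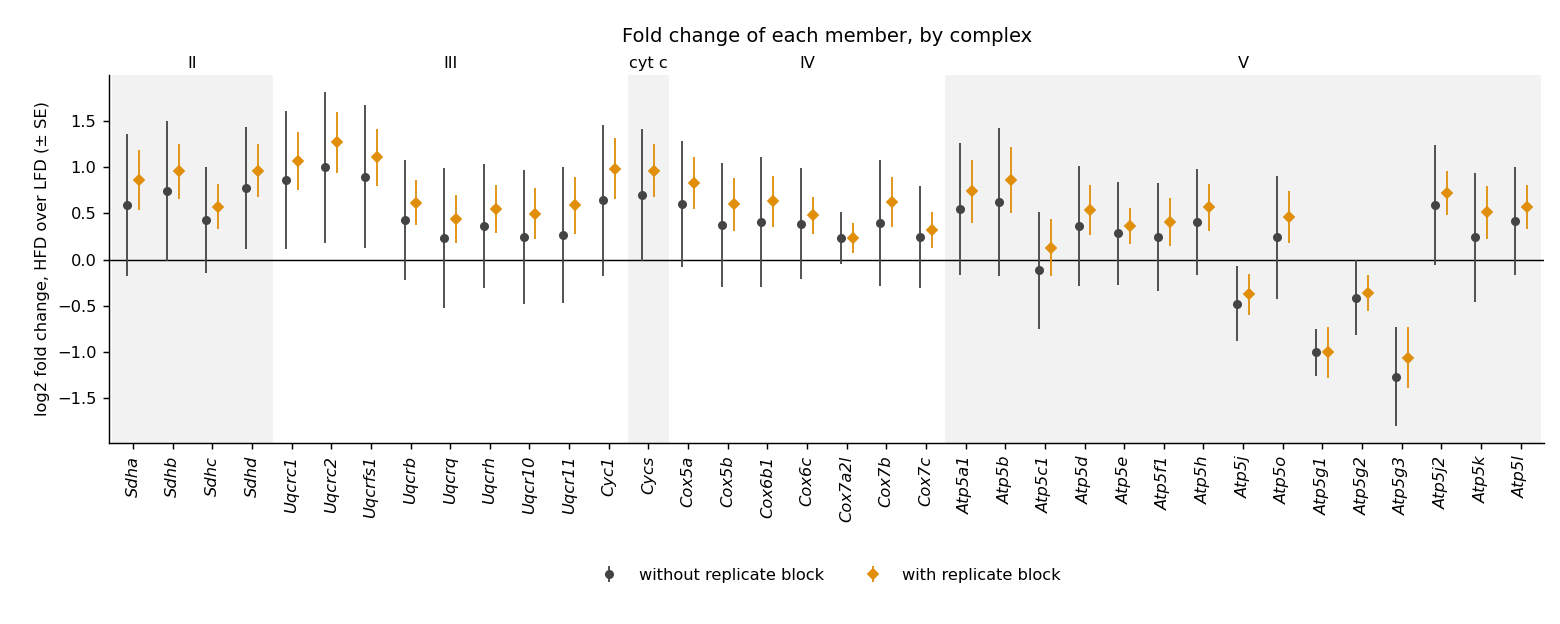
Log2 fold change of each member, HFD over LFD, from edgeR without (grey circles) and with (orange diamonds) the replicate block; bars are standard errors and columns are grouped by complex. The grey bars of 28 genes cross 0, the orange bars are shorter except in Atp5g1, and Atp5g1 and Atp5g3 are the lowest points in both fits.

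Complex II had the highest median fold change of the complexes. Sdha, which holds the succinate-oxidizing site, was at 619, 738 and 308 TPM in HFD and 657, 373 and 178 TPM in LFD replicates 1 to 3. Sdhd, a membrane anchor subunit, was at 276, 327 and 160.3 TPM in HFD and 239, 133 and 101 TPM in LFD. Sdhc, the other anchor, was at 269, 329 and 185 TPM in HFD and 298, 202 and 121 TPM in LFD. HFD replicate 2 was highest and LFD replicate 3 lowest in all of these, and the diets overlapped. The log2 fold changes were 0.59 ± 0.77 (SE) for Sdha, 0.77 ± 0.66 for Sdhd and 0.43 ± 0.57 for Sdhc. That of Sdhb, the iron-sulfur subunit between the catalytic site and the membrane, was 0.74 ± 0.76. The median of the 4 genes was 0.67, and their adjusted p-values were 0.782 to 0.881 in edgeR's quasi-likelihood test. Leaving out single mice moved the median between 0.24 without LFD replicate 3 and 1.65 without LFD replicate 1. With the block it was 0.90, and Sdha, Sdhb and Sdhd had an unadjusted p under 0.05.

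In complex III, the core subunits had larger fold changes than the small ones. Uqcrc2, a core subunit, was at 585, 714 and 250.5 TPM in HFD and 460.4, 242 and 123 TPM in LFD replicates 1 to 3. Uqcrq, a small subunit next to cytochrome b, was at 434, 417 and 183 TPM in HFD and 515, 244 and 173 TPM in LFD. Uqcrh, the hinge protein that helps cytochrome c dock, was the most abundant of the complex with 657, 751 and 348 TPM in HFD and 731, 478 and 278 TPM in LFD. HFD replicates 1 and 2 were the highest mice for Uqcrc2, whereas LFD replicate 1 was highest for Uqcrq, and the diets overlapped in all 3 genes. Uqcrc2 had the largest positive fold change of the whole set, 1.00 ± 0.82 (SE; adjusted p = 0.769 in edgeR's quasi-likelihood test), and Uqcrq the smallest of the complex, 0.23 ± 0.75. Uqcrfs1, the Rieske iron-sulfur protein, was at 0.89, Uqcrc1, the other core subunit, at 0.86, and Cyc1, which carries the cytochrome c1 haem, at 0.64. The small subunits Uqcrb, Uqcrh, Uqcr11 and Uqcr10 were at 0.43, 0.36, 0.27 and 0.25. The median of the 9 genes was 0.43, or 0.61 with the block, and lay between 0.027 without HFD replicate 1 and 1.37 without LFD replicate 1. For Uqcrc2, 16.5% of the 75-base stretches of its transcripts also occur in transcripts of Pdzd9, so part of its reads may be shared. The deposited posterior standard deviation of its expected count was small, on average 0.11% of the count.

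Cycs, the somatic cytochrome c gene, was at 172, 168 and 85.8 TPM in HFD and 138, 82.7 and 48.2 TPM in LFD replicates 1 to 3. Both replicates 3 were lowest in their diets, and HFD replicate 3 lay among the LFD mice. The log2 fold change was 0.70 ± 0.72 (SE; adjusted p = 0.829 in edgeR's quasi-likelihood test), and 0.96 ± 0.28 with the block (adjusted p = 0.192). Of its 75-base stretches, 23.9% also occur in Gm10053.

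The complex IV subunits had similar fold changes to one another. Cox6b1, a small subunit on the side where cytochrome c binds, was the most abundant, at 1424, 1589 and 771 TPM in HFD and 1563, 911 and 540.1 TPM in LFD replicates 1 to 3. Cox5a, an early-assembling subunit on the matrix side, was at 456, 512 and 263 TPM in HFD and 441, 249 and 162 TPM in LFD. Cox7a2l, which is known as an assembly factor of respiratory supercomplexes, was at 113, 149.8 and 120.1 TPM in HFD and 109, 138 and 133 TPM in LFD. Replicate 3 was the lowest mouse of its diet for Cox6b1 and Cox5a but not for Cox7a2l, whose 6 values lay close together. The log2 fold changes were 0.60 ± 0.68 (SE) for Cox5a, 0.41 ± 0.70 for Cox6b1 and 0.23 ± 0.28 for Cox7a2l. Cox5b, Cox6c, Cox7b and Cox7c, further structural subunits, had values of 0.37, 0.39, 0.40 and 0.24. The median was 0.39, or 0.60 with the block, and lay between -0.016 without HFD replicate 1 and 1.35 without LFD replicate 1. The adjusted p-values were 0.85 to 0.939 in edgeR's quasi-likelihood test. The within-diet standard deviation of Cox7a2l was 0.34 on the log2 CPM scale, next to 0.83 to 1.07 for the other 6 genes of the complex.

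Among the complexes of the set, complex V was the only one whose members took both signs. The complex IV isoform genes left out of the set, given below, also took both, as did the nuclear subunits of complex I. In the F1 head and central stalk, Atp5b was at 2179, 2241 and 1097 TPM in HFD and 2286, 1070.1 and 718 TPM in LFD replicates 1 to 3. LFD replicate 1 was the highest mouse, the other LFD mice lay below HFD replicate 3, and the log2 fold change was 0.62 ± 0.80 (SE; adjusted p = 0.876 in edgeR's quasi-likelihood test). Atp5a1, the alpha subunit that alternates with beta in the head, was at 0.55, Atp5d and Atp5e, the delta and epsilon subunits at the foot of the stalk, at 0.36 and 0.28. Atp5c1, the gamma subunit that turns inside the head, was at -0.12, and at 0.13 with the block. In the peripheral stalk, which holds the head still, Atp5h, Atp5f1 and Atp5o were at 0.40, 0.24 and 0.24. The other membrane subunits Atp5j2, Atp5l and Atp5k, known as f, g and e, were at 0.59, 0.42 and 0.24. Of these, Atp5k and Atp5l sit where ATP synthase dimers meet. The median of the 15 genes was 0.24, or 0.46 with the block, and lay between -0.13 without HFD replicate 1 and 1.11 without LFD replicate 1.

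Atp5j, coupling factor 6 of the peripheral stalk, departed from its neighbours. Its level was 139, 169 and 144 TPM in HFD and 280.3, 280.1 and 174 TPM in LFD replicates 1 to 3. All HFD mice were below all LFD mice in TPM, with 169 and 174 TPM at the edge, while in log2 CPM the diets overlapped. The log2 fold change was -0.48 ± 0.41 (SE; adjusted p = 0.782 in edgeR's quasi-likelihood test). Of its 75-base stretches, 5.71% also occur in other genes, chiefly the neighbouring Gabpa.

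The 3 c-ring genes encode proteins that differ in the leader sequence removed on import and share the mature subunit c. Atp5g1 lies at chr11:96068852-96075670, Atp5g2 at chr15:102662864-102672352 and Atp5g3 at chr2:73908447-73911326 in GRCm38, all on the minus strand. The ends of their coding sequences, from GENCODE transcripts of GRCm38 without the stop codon, are shown because they tell whether reads of 75 bases can separate the genes. The last 78 codons encode the same residues in all 3 genes, and capitals mark the 63 of 234 positions at which the bases differ among them. They read from 5′ to 3′ as follows.

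Atp5g1: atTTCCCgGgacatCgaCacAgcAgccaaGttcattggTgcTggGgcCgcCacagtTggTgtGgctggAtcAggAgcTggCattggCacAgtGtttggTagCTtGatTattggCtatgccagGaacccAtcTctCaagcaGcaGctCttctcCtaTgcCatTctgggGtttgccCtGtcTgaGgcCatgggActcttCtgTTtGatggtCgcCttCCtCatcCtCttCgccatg
Atp5g2: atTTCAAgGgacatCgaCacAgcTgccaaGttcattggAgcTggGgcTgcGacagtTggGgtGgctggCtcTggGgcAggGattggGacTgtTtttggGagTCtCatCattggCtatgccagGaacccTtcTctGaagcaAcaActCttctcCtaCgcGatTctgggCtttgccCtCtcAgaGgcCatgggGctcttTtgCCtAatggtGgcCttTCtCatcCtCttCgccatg
Atp5g3: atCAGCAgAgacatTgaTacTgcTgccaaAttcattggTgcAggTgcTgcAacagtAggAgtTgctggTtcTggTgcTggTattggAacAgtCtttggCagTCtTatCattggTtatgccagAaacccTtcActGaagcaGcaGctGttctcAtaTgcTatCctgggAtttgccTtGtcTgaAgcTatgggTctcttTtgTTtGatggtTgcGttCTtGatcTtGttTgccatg

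Pairs of these ends were identical at 84.6% of positions for Atp5g1 and Atp5g2, 78.6% for Atp5g1 and Atp5g3 and 77.4% for Atp5g2 and Atp5g3. The longest exact stretch that any pair of their transcripts shared was 21 bases, shorter than a read, so a read without errors could be placed in 1 of the 3 genes. Other copies were a larger source of ambiguity. Of the 75-base stretches of Atp5g2, 35.8% also occur in other genes, nearly all of them in Gm10175, while 7.29% of those of Atp5g1 do, mostly in Gm10039, and 0% of those of Atp5g3. The deposited posterior standard deviation of the expected count averaged 8.55% of the count for Atp5g2, 2.56% for Atp5g1 and 0% for Atp5g3.

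The c-ring genes were lower in HFD-fed than in LFD-fed mice in TPM. Atp5g1 was at 38.7, 57.4 and 91.9 TPM in HFD and 114, 193 and 146 TPM in LFD replicates 1 to 3. Atp5g3 was at 146, 152 and 155 TPM in HFD and 514, 426 and 233 TPM in LFD. Atp5g2 was at 105, 122 and 91.4 TPM in HFD and 182, 143 and 153 TPM in LFD. All HFD mice lay below all LFD mice in each gene. HFD replicate 3, the lowest HFD mouse of most members, was the highest HFD mouse in TPM for Atp5g1 and Atp5g3, and in log2 CPM for Atp5g1 alone.

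With Atp5j, these made 4 of 36 members that were lower in every HFD than in every LFD mouse in TPM. That share is close to the 11.6% of all genes, so the count does not set the members apart. In TPM 0 members were higher in every HFD mouse, compared with 1.65%. In log2 CPM, Atp5g1 alone was lower in every HFD mouse (9.23% of all genes) and 0 members were higher (6.72% of all genes).

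The log2 fold change of Atp5g1 was -1.00 ± 0.26 (SE), with an unadjusted p of 0.0062 and an adjusted p of 0.242 in edgeR's quasi-likelihood test. DESeq2 gave an adjusted p of 0.0584, and leaving out single mice moved the fold change between -1.18 and -0.91. In the edgeR test with the block, Atp5g1 was at -1.00 ± 0.28, with an unadjusted p of 0.0155 and an adjusted p of 0.173. The exact permutation test on its log2 CPM gave a 2-sided p of 0.1, the smallest that 3 mice against 3 allow. Atp5g3 fell outside that unadjusted threshold, with -1.27 ± 0.54 and an adjusted p of 0.48 by the same edgeR test, and its fold change was -0.58 without LFD replicate 1. With the block it was -1.06 ± 0.33, at an unadjusted p of 0.0246 and an adjusted p of 0.209. Atp5g2 was at -0.41 ± 0.40 with an adjusted p of 0.819, and at 0.067 without LFD replicate 1. Skeletal muscle markers, given above, were likewise lower in every HFD than in every LFD mouse. In TPM, LFD replicate 2, with the highest muscle sum, had the highest Atp5g1, while LFD replicate 1 had the highest Atp5g2 and Atp5g3. In log2 CPM, LFD replicate 1 was highest for all 3 genes, with Atp5g1 at 6.241 beside 6.235 in LFD replicate 2. White adipocyte markers summed to 314, 98.0 and 42.7 TPM in HFD and 1879, 1345 and 218 TPM in LFD replicates 1 to 3. They took the order of Atp5g3 in LFD and, in TPM, the reverse of its order in HFD, where Atp5g3 varied little. In log2 CPM, Atp5g3 was at 6.892, 6.255 and 6.231 in HFD replicates 1 to 3, the same order as the white adipocyte sum. The diets overlapped in this sum at HFD replicate 1 and LFD replicate 3. The part of either cell type in the c-ring values was not tested.

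The c ring was set against the F1 head and stalk of the same enzyme. Summed over its 3 genes, the c ring was at 289.9, 332 and 338 TPM in HFD and 809.7, 763 and 532 TPM in LFD replicates 1 to 3. As a percentage of the summed TPM of the 5 F1 genes this was 6.78%, 6.97% and 14.3% in HFD and 17.2%, 29.3% and 30.5% in LFD. Every HFD mouse lay below every LFD mouse, the nearest being HFD replicate 3 and LFD replicate 1. Taken singly as a percentage of Atp5b, only Atp5g3 separated, at 6.72%, 6.80% and 14.1% in HFD and 22.5%, 39.8% and 32.4% in LFD. Atp5g1 and Atp5g2 overlapped, at 8.38% and 8.33% in HFD replicate 3 and 4.99% and 7.96% in LFD replicate 1. The c-ring sum was similar in the HFD mice, and the higher ratio of HFD replicate 3 went with a lower F1 sum, 2367 TPM beside 4275 and 4759.5 TPM in replicates 1 and 2. The mean was 9.35% ± 4.28 (SD, n = 3) in HFD and 25.7% ± 7.36 (SD, n = 3) in LFD. For comparison, the TPM of Atp5a1 as a percentage of that of Atp5b was 51.1% ± 4.86 (SD, n = 3) in HFD and 53.1% ± 5.18 (SD, n = 3) in LFD. Separation against Atp5b was not particular to the c ring. Atp5c1, itself an F1 gene, Atp5k, Uqcr10 and Uqcrq were also lower relative to Atp5b in every HFD mouse, as were 8.01% of all genes. Within the c ring, Atp5g3 made up 45.8% to 50.5% of the TPM in HFD and 43.8% to 63.4% in LFD, so it was the largest source in every mouse.

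**Figure D3:**
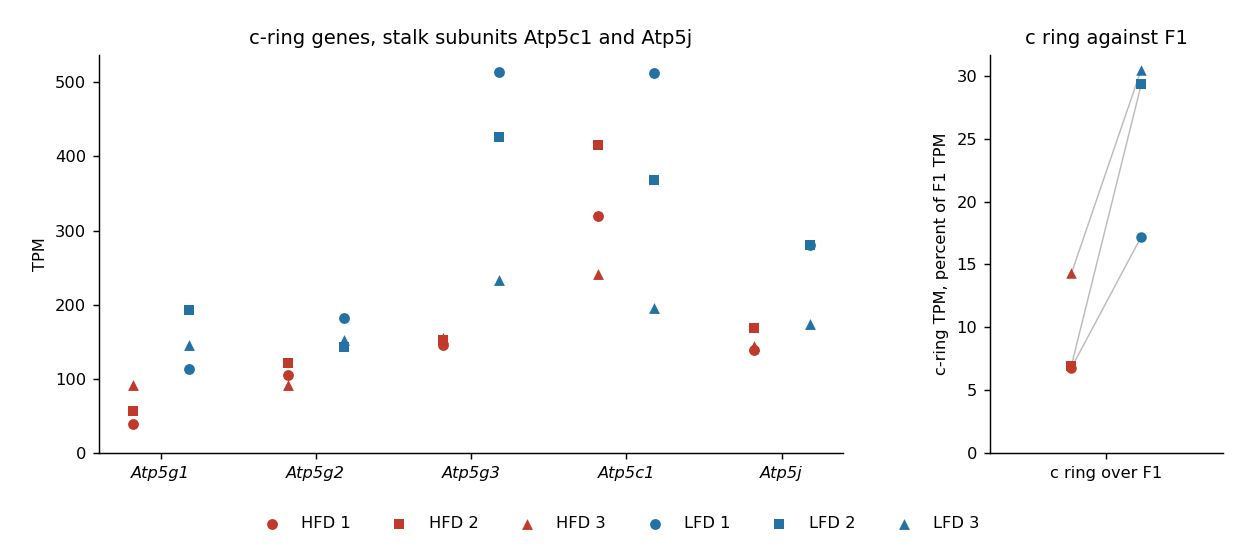
Left, TPM of the c-ring genes Atp5g1, Atp5g2 and Atp5g3 and of Atp5c1 and Atp5j in each mouse (red HFD, blue LFD; circle, square and triangle for replicates 1, 2 and 3). Right, summed c-ring TPM as a percentage of the summed TPM of the 5 F1 genes, with grey lines joining mice of equal number: the HFD mice end at 14.3% and the LFD mice begin at 17.2%.

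Summed by complex, the diets overlapped throughout. Complex II was at 1557, 1854 and 833 TPM in HFD and 1541, 897 and 510.3 TPM in LFD replicates 1 to 3. Complex III was at 4464, 5042 and 2243 TPM in HFD and 4623, 2586 and 1499 TPM in LFD. Complex IV was at 4777, 5160.3 and 2759 TPM in HFD and 5109.5, 3255 and 2094 TPM in LFD. In these sums LFD replicate 1 stood with HFD replicates 1 and 2, and the remaining mice lay lower. Complex V was at 7549.7, 8594 and 4636 TPM in HFD and 9009, 5753 and 3788 TPM in LFD, with LFD replicate 1 highest.

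The share of each complex in the set was read from the same sums. Complex V supplied 40.8%, 41.3% and 43.9% of the summed TPM of the members in HFD and 44.1%, 45.8% and 47.7% in LFD replicates 1 to 3, without overlap but with 43.9% and 44.1% at the edge. Without the c-ring genes, complex V supplied 39.2%, 39.7% and 40.7% of the same total in HFD and 40.2%, 39.7% and 41.0% in LFD, so that the diets overlapped. That total still held the c ring. With the c ring taken out of the total too, the shares were 39.82%, 40.33% and 42.06% in HFD and 41.81%, 42.25% and 43.95% in LFD. These overlapped only at HFD replicate 3 and LFD replicate 1. Complex II supplied 8.41%, 8.90% and 7.89% in HFD and 7.55%, 7.13% and 6.43% in LFD, without overlap and in the opposite direction. The shares of complex III, 21.2% to 24.2% in HFD and 18.9% to 22.6% in LFD, and of complex IV, 24.8% to 26.1% and 25.0% to 26.4%, overlapped. With 3 mice a diet, an exact permutation test of such shares cannot give a 2-sided p below 0.1.

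**Figure D4:**
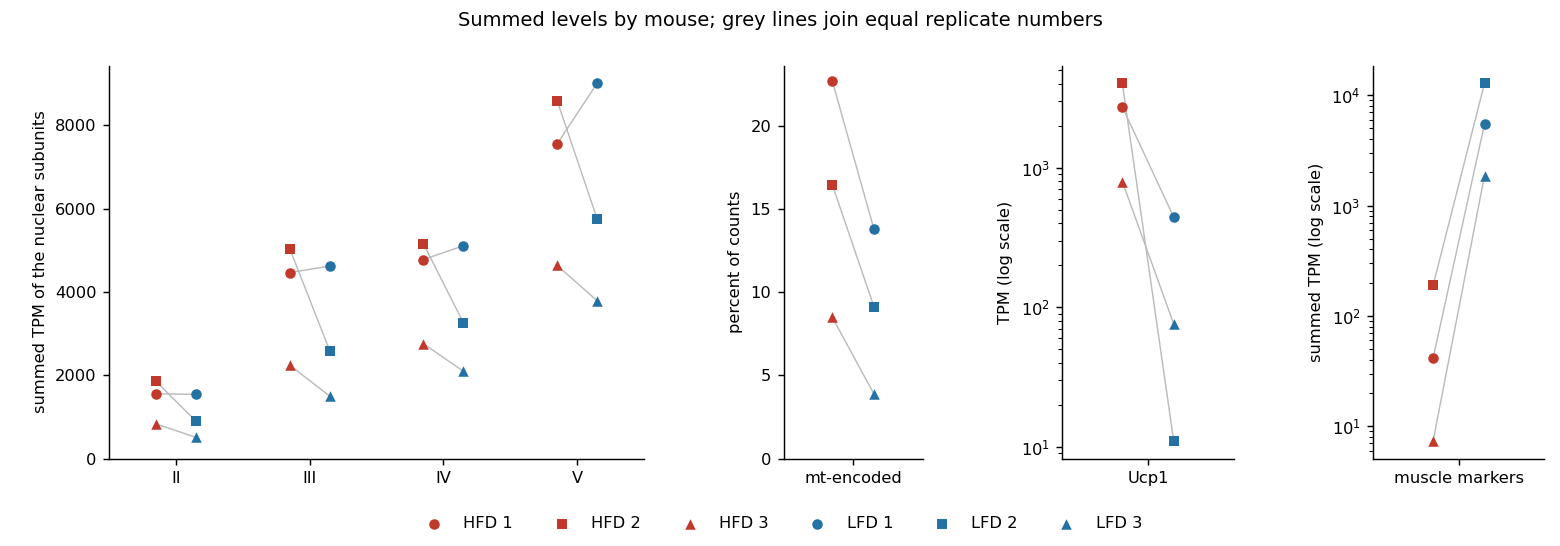
Summed TPM of the nuclear subunits of complexes II, III, IV and V, the percentage of counts from mitochondrially encoded genes, TPM of Ucp1 (log axis) and summed TPM of 12 muscle markers (log axis) in each mouse (red HFD, blue LFD; circle, square and triangle for replicates 1, 2 and 3, joined by number in grey). The sums of every complex overlap between the diets, while Ucp1 and the muscle markers do not.

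The members were then compared within each mouse, as the log2 TPM of a gene minus the median log2 TPM of the 36 members, a scale chosen after the data had been seen. On it, 7 members were higher in every HFD than in every LFD mouse (1.17% of all genes) and 4 were lower (8.26% of all genes). The higher genes were Sdhb and Sdhd of complex II, Uqcrc1, Uqcrc2 and Uqcrfs1 of complex III, Cycs, and Cox5a of complex IV. The lower genes were Cox7c, Atp5c1, Atp5g2 and Atp5g3. The median of the members enters each value, so these counts move together, and for genes outside the chain it adds the spread that it removes from the members, so that the shares of all genes are no like baseline. Of the 36 nuclear subunits of complex I, 3 were higher and 8 lower in every HFD mouse on this scale, and of the 6 mitochondrially encoded subunits of complexes III to V, 5 were higher and 0 lower.

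Uqcrc1 had relative levels of 0.12, 0.26 and -0.01 in HFD and -0.29, -0.56 and -0.35 in LFD replicates 1 to 3, a difference in means of 0.52. Cycs had -1.40, -1.56 and -1.54 in HFD and -1.82, -1.90 and -1.89 in LFD, a difference of 0.37. Atp5c1 had -0.50, -0.26 and -0.04 in HFD and 0.08, 0.26 and 0.13 in LFD, a difference of -0.42. In all 3 genes the diets stood apart although their TPM values overlapped. The largest differences were those of Atp5g1, -1.68, and Atp5g3, -1.65, but Atp5g1 in HFD replicate 3 (-1.44) lay above LFD replicate 1 (-2.09). In 22 of the 36 members the difference was under 0.25 in either direction. Cox6b1 stayed between 1.56 and 1.69 in all 6 mice.

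With Atp5b in place of the median, only Uqcrc1 and Uqcrc2 were higher in every HFD mouse (0.724% of all genes). The 5 lower genes were then Atp5c1, Atp5g3, Atp5k, Uqcr10 and Uqcrq (8.01% of all genes). Cox7c and Atp5g2 no longer separated against Atp5b. With the median of the 36 nuclear complex I subunits in its place, the 7 higher and 4 lower genes all stayed, and 10 genes were higher and 5 lower. Leaving out a mouse makes separation more frequent in all genes. Without LFD replicate 1 the counts were 12 (1.38% of all genes) and 9 (38.6%), without HFD replicate 3 they were 9 (1.42%) and 8 (23.4%), and without LFD replicate 2 they were 7 (1.58%) and 7 (8.61%).

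**Figure D5:**
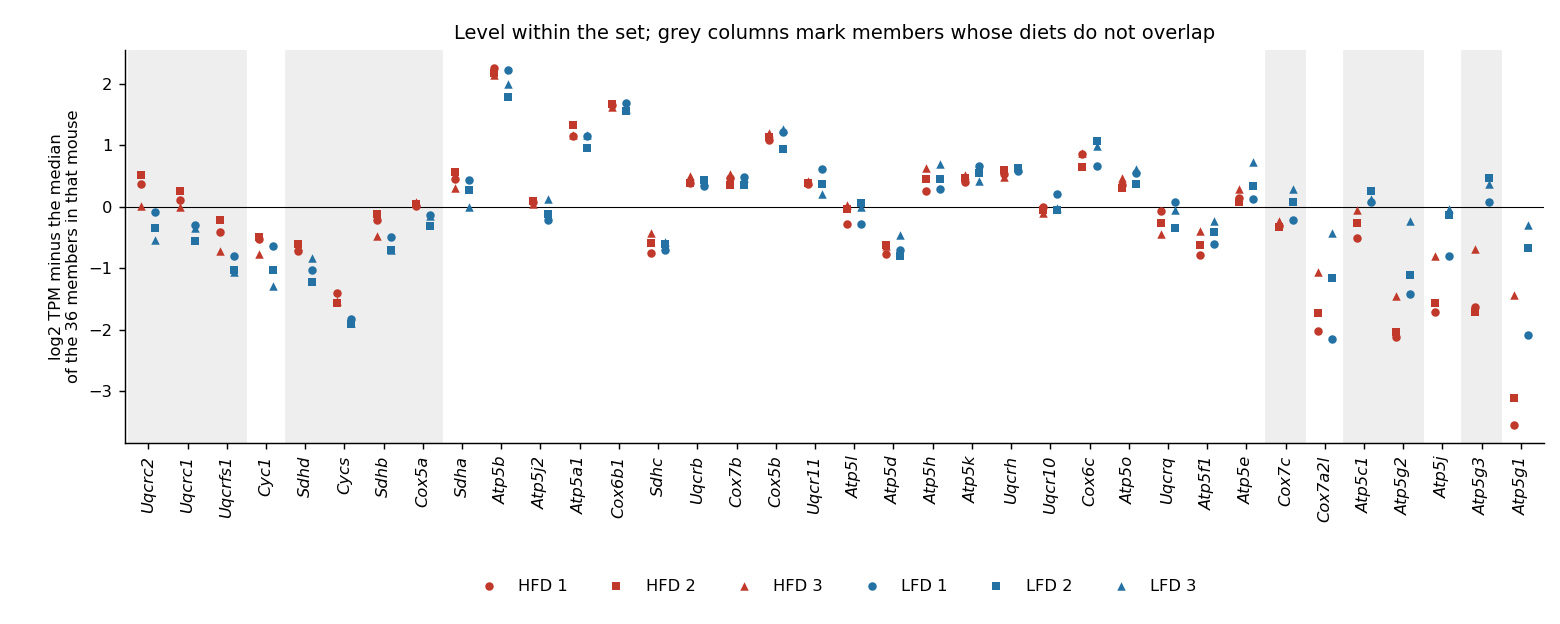
Log2 TPM minus the median of the 36 members in the same mouse, genes ordered by the difference between diet means (red HFD, blue LFD; circle, square and triangle for replicates 1, 2 and 3). Grey columns mark the 11 genes whose diets do not overlap, 7 with HFD above LFD at the left and 4 with HFD below LFD toward the right.

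Subunits encoded elsewhere were read from lists of the same chain. The 6 mitochondrially encoded subunits of complexes III to V all had positive fold changes, with a median of 0.99, from 0.81 in mt-Co3 to 1.16 in mt-Co2, both core subunits of complex IV. None had an unadjusted p under 0.05, and 4 did with the block. Mitochondrially encoded genes together took 22.7%, 16.5% and 8.50% of counts in HFD and 13.8%, 9.12% and 3.87% in LFD replicates 1 to 3, with replicate 3 lowest in both diets as in the members. Of the 36 nuclear subunits of complex I, 34 had positive fold changes with a median of 0.34, from -0.07 in Ndufa2 to 0.70 in Ndufv1. At an unadjusted p under 0.05 there were 0 of these without and 13 with the block, where 10.5% and 17.5% of all genes passed.

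The complex IV subunits with tissue isoforms went in both directions. Of 11 listed genes 9 were tested, with a median of 0.40. Cox6a2, the isoform of striated muscle, was at 1.05, 2.89 and 1.71 TPM in HFD and 46.1, 115.5 and 22.4 TPM in LFD replicates 1 to 3, with LFD replicate 2 highest as for the muscle markers. Its log2 fold change was -4.88 ± 0.72 (SE; adjusted p = 0.17 in edgeR's quasi-likelihood test, 0.0375 with the block). Cox7a1, abundant in brown fat and striated muscle, was at 916, 930.4 and 224 TPM in HFD and 297, 125 and 45.9 TPM in LFD. HFD replicate 3 lay below LFD replicate 1, and the log2 fold change was 2.18 ± 1.03 (adjusted p = 0.53 in the same test).

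The stretch before the transcription start was examined because the members shared their highest and lowest mice in log2 CPM. RefSeq promoter windows of GRCm38.p6, limited here to the 250 bases upstream, were matched by symbol or synonym for 29 of 36 members, without Sdhc, Uqcrc2, Uqcrb, Uqcrq, Cyc1, Cox6c and Atp5a1. Both strands were searched for 4 short motifs. GCATGCG, a core of the site of nuclear respiratory factor 1 (NRF1), was present in 6 of 29 members and in 5.7% of all tested genes with a window. CCGGAAG, a core of the ETS family site that GABP binds, was present in 8 of 29 and in 14.3%. AAGGTCA, the site of estrogen-related receptors, was present in 2 of 29 and in 3.7%, and ATGGCGG, a core of the YY1 site, in 1 of 29 and in 4.1%. A match is a description of letters, not a bound site.

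Windows of Cycs, on the minus strand at chr6:50566570-50566819, and Atp5g3, on the minus strand at chr2:73911327-73911576, are shown as a gene of each direction on the relative scale. Capitals mark the NRF1 core in Cycs, where matches on both strands overlap, and the estrogen-related receptor motif, on the opposite strand, in Atp5g3.

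Cycs: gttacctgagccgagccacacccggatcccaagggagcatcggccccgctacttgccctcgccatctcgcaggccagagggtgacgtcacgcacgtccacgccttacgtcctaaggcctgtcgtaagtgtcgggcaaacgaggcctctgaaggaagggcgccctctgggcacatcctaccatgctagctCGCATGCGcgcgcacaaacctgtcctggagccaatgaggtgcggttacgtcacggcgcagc
Atp5g3: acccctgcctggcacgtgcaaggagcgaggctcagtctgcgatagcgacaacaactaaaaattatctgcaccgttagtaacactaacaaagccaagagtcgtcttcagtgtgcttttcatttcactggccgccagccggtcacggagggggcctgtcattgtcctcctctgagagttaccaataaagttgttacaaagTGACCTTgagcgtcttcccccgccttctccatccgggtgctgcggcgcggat

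Sdhb, Atp5j, Atp5g2, Atp5k and Atp5l also held the NRF1 core. These genes stood on both sides of 0 on the relative scale, with differences of 0.36 in Sdhb and -0.95 in Atp5g2. The windows of Atp5b, Uqcrc1 and Atp5g1 held none of the 4 motifs.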

How the data were processed

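BAT of 3 HFD-fed and 3 LFD-fed mice was compared, with diets and replicate numbers taken from the labels. Adapters were trimmed by the authors with Trimmomatic 0.36, and RSEM 1.3.0 quantified the reads on GRCm38.p4. They deposited expected counts, which are not normalized and divide reads that match several genes, TPM values, which are scaled for length and to a fixed total, effective lengths, and the posterior standard deviation of each count. Whether counting used strand is not given in the sources used here, so reads of overlapping genes cannot be told apart.

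Expected counts were rounded and tested in R 4.3.3 with edgeR 4.0.16, using TMM normalization, filterByExpr and the quasi-likelihood test with Benjamini-Hochberg adjustment over all 17668 genes. DESeq2 1.42.0 was an alternative. Log2 CPM used a prior count of 2. Total counts were 17156991 to 21603487 per mouse. No pair of mice within a diet looked like a repeated library, with a chi-square of their counts of at least 80.3 per degree of freedom. Pairs across the diets were not checked.

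Replicate numbers come from the labels, and the study names no matching of mice by number. Deviations from the diet means correlated across genes by 0.229 to 0.522 in same-numbered pairs and by -0.528 to 0.053 in others; genes are not independent replicates, and centring lowers the second range. P-values measure the spread between these 6 mice.

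The members and lists were chosen with earlier results of these data known. All members were named, with values of every mouse for the most abundant gene and the extremes of fold change in each complex, the c-ring genes and Cycs; Atp5j, Uqcrc1 and Atp5c1 were added after their values were seen. Positions and transcripts come from GENCODE M21. Alternatives were RLE size factors, other count filters, omission of mitochondrially encoded and ribosomal RNA genes, the replicate block, TPM, and each mouse left out.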

Additional observations from a re-analysis of the deposited data

How the results depend on the processing

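No member was called, or reached an adjusted p under 0.05, under any alternative: RLE size factors, no mitochondrially encoded and ribosomal RNA genes, no filter, a minimum of 10 counts, DESeq2, the replicate block, or each mouse left out. The number at an unadjusted p under 0.05, 1 in the comparison reported, was 2 without a filter, 2 with a minimum of 10 counts, 2 in DESeq2 and 12 with the replicate block, and ranged from 1 to 16 with single mice left out, with 16 without LFD replicate 1, where 14.3% of all genes passed beside 10.5% in the comparison reported, and 2 without LFD replicate 3, where 17.3% did. Members higher in every HFD mouse in log2 CPM numbered 0 to 16 over the same omissions. The 16 came without LFD replicate 1 (13.9% of all genes). Members lower numbered 1 to 3, with 3 without LFD replicate 3 (18.1% of all genes). In TPM with all mice they numbered 4 (11.6% of all genes). Counts of members with non-overlapping relative levels, alternatives chosen after seeing the data, ranged from 7 to 12 (higher) and 4 to 9 (lower) with mice left out, and the higher count was 2 relative to Atp5b.

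In the other lists, the replicate block raised the number of genes at an unadjusted p under 0.05 to 4 of the mitochondrially encoded subunits of complexes III to V, 7 of complex I, 13 nuclear subunits of complex I, 4 complex IV isoforms, 2, 4 and 1 assembly genes of complexes III, IV and V, and 5 regulators, for which DESeq2 gave 4. Over all tested genes the block raised that share from 10.5% to 17.5%. At an adjusted p under 0.05 the block gained Cox6a2, 9 of 12 muscle markers, 1 white adipocyte gene (Retn) and 1 T and NK cell gene (Gzmb), among 184 of all genes against 0 without it. The pairing behind the block changed the call of no member at that threshold. The causes were not tested.

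Of 216 fold changes of members under alternatives other than omissions, 1 changed sign, that of Atp5c1, to 0.13 with the block. Over the omission of single mice, 32 of 216 did, in 16 members. The fold change ranged from -0.32 to 1.34 in Uqcrq, -0.035 to 1.24 in Uqcrh, -0.20 to 1.31 in Uqcr10, -0.17 to 1.37 in Uqcr11, -0.016 to 1.36 in Cox5b, -0.006 to 1.38 in Cox6b1, -0.087 to 1.04 in Cox6c, -0.032 to 1.35 in Cox7b and -0.12 to 0.87 in Cox7c. In complex V it ranged from -0.52 to 0.72 in Atp5c1, -0.017 to 1.28 in Atp5d, -0.13 to 0.95 in Atp5e, -0.12 to 1.00 in Atp5f1, -0.15 to 1.19 in Atp5o, -0.68 to 0.067 in Atp5g2 and -0.18 to 1.24 in Atp5k. The highest value in each of these came without LFD replicate 1, and the lowest without HFD replicate 1 or LFD replicate 3. The median over members ranged from -0.01 to 1.29. Depth limited the members little, at 526 counts or more in every mouse.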

Other observations

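Assembly factors of the same complexes had smaller median fold changes than the subunits in complexes II and III. The median log2 fold change, HFD over LFD, was -0.01 over 4 complex II factors, 0.00 over 6 complex III factors, 0.32 over 20 complex IV factors and 0.31 over 6 genes of complex V assembly and regulation, and 0 of these genes had an unadjusted p under 0.05 in edgeR's quasi-likelihood test. Cox17, the copper chaperone of complex IV, had the highest value, 1.05 ± 0.48 (SE), with 214, 269.7 and 129 TPM in HFD and 141, 89.0 and 82.9 TPM in LFD replicates 1 to 3. Cox20, another complex IV assembly factor, had the lowest of its list, -0.26. The extremes of the other lists were Sdhaf3 at -0.22 and Sdhaf4 at 0.39, Ttc19 at -0.14 and Lyrm7 at 0.75, and Atp5s at -0.12 and Atpaf2 at 0.71.

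Among 14 nuclear regulators of respiratory genes, 11 had positive fold changes, with a median of 0.30 and a range from -0.12 in Pprc1 to 1.54 in Esrrg, an estrogen-related receptor. Ppargc1b, a coactivator of respiratory genes, was at 10.8, 20.9 and 8.29 TPM in HFD and 4.83, 4.55 and 2.80 TPM in LFD replicates 1 to 3, without overlap, with an adjusted p of 0.425 in edgeR's quasi-likelihood test. Gabpa, a subunit of GABP that neighbours Atp5j, was at 0.51 ± 0.20 (adjusted p = 0.446 in the same test), and 0 regulators passed an adjusted p under 0.05.

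Further marker lists were read beside the members. Median log2 fold changes were 1.78 over 10 brown adipocyte genes, -1.11 over 5 white adipocyte genes, 0.81 over 10 macrophage genes, 2.00 over 9 T and NK cell genes and 0.84 over 6 endothelial genes. The summed level of the brown adipocyte genes was 4241, 5897 and 1314 TPM in HFD and 1044, 200.2 and 209 TPM in LFD replicates 1 to 3. The 7 mitochondrially encoded subunits of complex I had a median of 1.13, with the lowest value in mt-Nd4l and the highest in mt-Nd3.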
